A study of Mus musculus with 7 samples.

Results

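The genes described are the matrix metalloproteases (Mmp), the secreted proteases with thrombospondin repeats (Adamts) and the tissue inhibitors of metalloproteases (Timp) of primary mouse granulosa cells. Members were all rows of the count table whose symbol begins with Mmp, Adamts or Timp followed by a digit, which gave 46 of 55228 rows: 23 Mmp, 19 Adamts and 4 Timp genes. The wild-type group (WT) had 4 libraries and the group labelled Fhl2 knockout (Fhl2 KO, or KO) had 3. All came from C57BL/6J ovaries and were described as untreated. FHL2 is an adaptor protein built of LIM domains. The sources used here do not give the age of the mice, whether they were stimulated before collection, the knockout allele, or whether animals were pooled. The comparison asks how this protease system differs between the genotypes, in a study whose title concerns follicle development, fertility and signalling from the EGF receptor to YAP.

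MMPs and ADAMTS enzymes are zinc-dependent proteases made as inactive precursors. MMPs cut collagens, gelatin, laminins and many other matrix and surface proteins, while ADAMTS enzymes cut large proteoglycans such as versican or trim procollagen. TIMPs bind the active sites of these enzymes and block them, and TIMP2 also takes part with MMP14 in activating MMP2. In the ovary, proteolysis of the follicle wall accompanies growth and ovulation, and ADAMTS1 is known as an enzyme that granulosa cells make under progesterone receptor control at ovulation.

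Library totals ran from 38855596 to 50514556 counts, and the members held 0.193% to 0.201% of the counts in WT and 0.178% to 0.188% in KO. Fhl2, the targeted gene, stood at 101, 114, 106 and 109.9 CPM (counts scaled to a common library size, with TMM factors) in WT libraries 1 to 4 and at 47.9, 66.8 and 60.4 CPM in KO libraries 1 to 3. Reads of Fhl2 thus remained in every KO library, with a KO mean of 54.1% of the WT mean (edgeR adjusted p = 3.29e-05), and counts per gene do not show which exons they cover. The granulosa genes Foxl2 (70.1 ± 6.61 CPM in WT, SD, n = 4, and 52.5 ± 6.45 in KO, n = 3) and Inha (1042 ± 53.5 and 1699 ± 121) were present. The aromatase gene Cyp19a1 had 0 reads in all 4 WT libraries and 0.204, 0.362 and 0.132 CPM in KO libraries 1 to 3. Cyp19a1 was too low to test. Long transcripts were represented unequally between libraries. For each doubling of transcript length, log2 CPM set against each gene's mean over all 7 libraries shifted by 0.0581 to 0.0855 in WT. The shift was -0.00163 in KO library 1, and -0.170 and -0.133 in KO libraries 2 and 3. These shifts compare the libraries with each other and do not give the length bias of a library by itself. Each fold change below is therefore also given, where this matters, after a correction for each library's trend on transcript length and GC content (the corrected value).

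Per kilobase of transcript, Mmp11 was the most abundant member in WT, at 220.0 CPM per kb, ahead of Timp2 (75.2), Mmp14 (65.1), Timp1 (54.0), Mmp23 (45.0), Adamts1 (33.2) and Adamts9 (26.0). Neighbours in this order did not share any part of their range over the 4 WT libraries. Mmp11 encodes stromelysin 3, which is activated inside the cell by furin, and Mmp14 encodes the membrane-anchored collagenase that activates MMP2. Next came Adamts2 (16.7) and Mmp2 (15.5), whose WT ranges overlapped, then Adamts10 (10.4) and Adamts5 (10.2), which overlapped as well, and Adamts19 (8.71) and Timp3 (8.10), which also overlapped. From Adamts16 (3.73) downward the levels fell below 4 CPM per kb, and from Adamts3 (0.208) downward below 0.3. Without division by length, Mmp11 alone gave 58.7% ± 1.17 of all Mmp counts in WT (SD, n = 4) and Timp2 gave 76.3% ± 0.660 of all Timp counts. Adamts counts were spread more evenly, with 27.4% ± 2.38 from Adamts9 and 21.3% ± 2.18 from Adamts1.

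**Figure D1:**
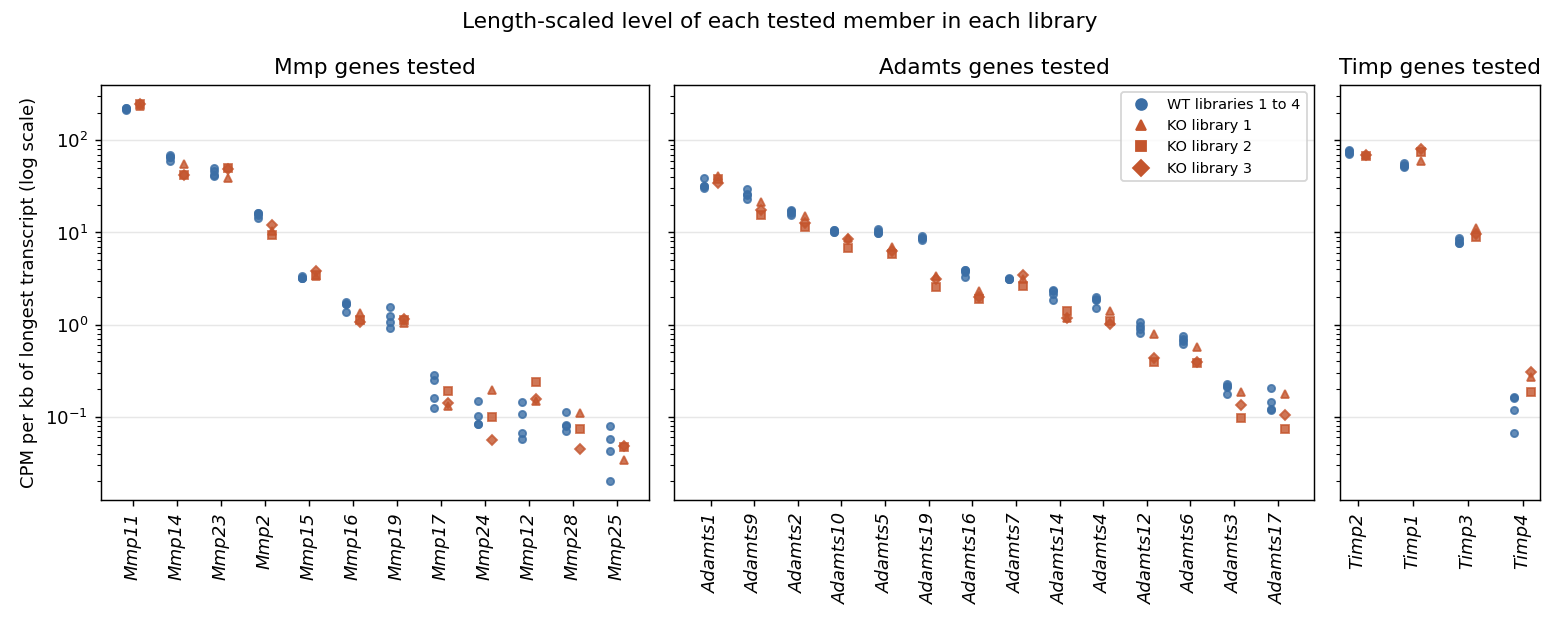
Level of each tested Mmp, Adamts and Timp gene in CPM per kb of its longest annotated transcript (log axis), with 1 point per library for WT (circles) and KO (triangle, square and diamond for libraries 1, 2 and 3). Mmp11 lies highest at 220.0 CPM per kb in WT, and the KO points of Adamts19 lie well below its WT points.

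In the KO libraries, most ADAMTS genes were lower and all TIMP genes but Timp2 were higher. Of the 46 members, 30 had enough reads to be tested with edgeR, and 16 of these passed an adjusted p of 0.05: 13 were lower and 3 were higher in KO. That is 53.3% of the members tested, beside 29.0% of all 15798 genes tested (15.6% lower and 13.5% higher). By family, 10 of 14 Adamts genes fell and none rose, 3 of 12 Mmp genes fell and none rose, and 3 of 4 Timp genes rose and none fell. The median log2 fold change was -0.33 over the tested members, -0.60 over Adamts, -0.15 over Mmp and 0.35 over Timp genes, with -0.000184 over all genes tested. Of the members past the threshold, only Adamts19 changed at least 2-fold, and 2.12% of all genes tested passed both limits. For 14 of the 30 tested members every KO library was below every WT library, and for 5 every KO library was above, where 17.7% and 16.4% of all genes tested did the same. After the length and GC correction 12 members passed, 9 lower and 3 higher, beside 22.8% of all genes (11.7% lower and 11.1% higher). These were not all the same genes: 6 of the 16 calls were lost, while Adamts1 (higher) and Mmp23 (lower) newly passed. By family, 6 Adamts genes were then lower and 1 higher, 3 Mmp genes were lower, and 2 Timp genes were higher. The corrected medians were -0.32 for Adamts, -0.14 for Mmp and 0.31 for Timp genes.

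**Figure D2:**
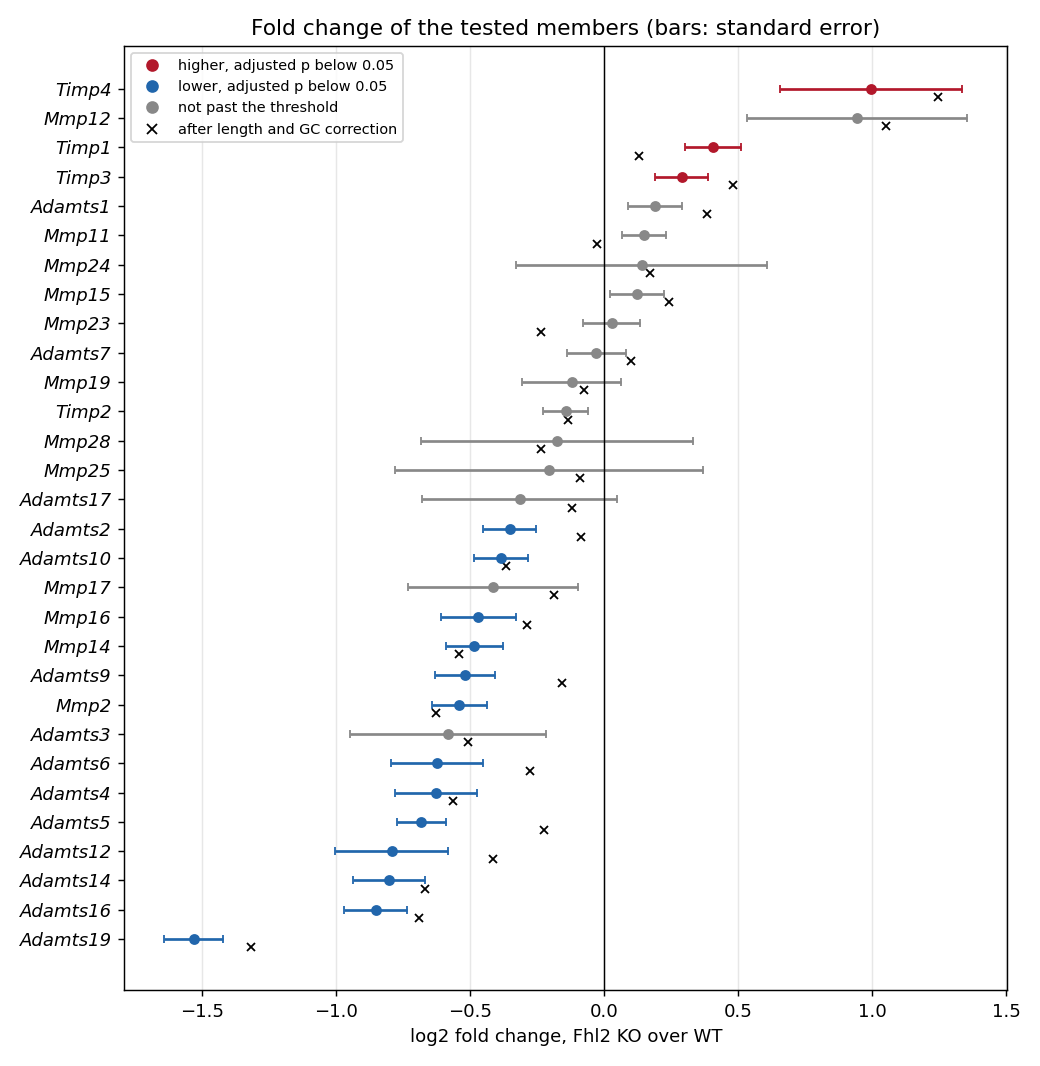
Log2 fold change of the 30 tested members, Fhl2 KO over WT, with bars of 1 standard error. Red and blue points passed an adjusted p of 0.05 in edgeR, grey points did not, and crosses give the value after correction for transcript length and GC content. Adamts19 lies farthest to the left at -1.53 and Timp4 farthest to the right at 1.00.

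The ADAMTS enzymes that cut versican and aggrecan, the large proteoglycans that bind hyaluronan, moved unequally. Of the 7 members of this group, 4 were tested and 3 fell. Adamts5, an aggrecanase on chromosome 16 from 85856173 to 85901828 (mm10, minus strand), stood at 106, 106, 118 and 111 CPM in WT libraries 1 to 4 and at 74.6, 63.6 and 68.1 CPM in KO libraries 1 to 3. All 3 KO libraries lay below every WT library, with little spread in either group. The log2 fold change of Adamts5 was -0.68 with an SE of 0.0906 (edgeR adjusted p = 7.94e-05), and the corrected change was smaller at -0.22 (adjusted p = 0.0248). Its longest transcript, 10791 bases, is the longest of all members tested.

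Adamts9, the versican-cleaving member with the most counts, stood at 203, 187, 237 and 208 CPM in WT and at 172, 125 and 139 CPM in KO. The groups did not overlap, and KO library 1 was nearest to WT. It fell to 0.698-fold (log2 fold change -0.52, SE 0.112, edgeR adjusted p = 0.00354), but not after the correction (-0.16, adjusted p = 0.167) or in KO library 1 alone against WT (-0.28, adjusted p = 0.151). Adamts4, another aggrecanase, stood at 8.80, 8.11, 6.69 and 8.34 CPM in WT and at 6.19, 4.86 and 4.48 in KO. It fell by 0.63 (SE 0.151, edgeR adjusted p = 0.00679, corrected -0.56), and the call was lost without KO library 3 (adjusted p = 0.0565) and with KO library 1 alone (0.316).

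Adamts1, the ovulation-associated protease, went the other way without passing the test. It stood at 155, 156, 147 and 191 CPM in WT and at 199, 187 and 169 CPM in KO, so WT library 4 lay within the KO range. Its log2 fold change was 0.19 (95% interval -0.02 to 0.40, edgeR adjusted p = 0.170). The corrected value was 0.38 (adjusted p = 0.00564). Adamts1 made up 31.4% ± 2.55 of all Adamts counts in KO (SD, n = 3), more than any other member there.

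The procollagen N-propeptidases remove the amino-terminal propeptide of fibrillar procollagens before fibrils form, and 2 of these 3 genes fell. Adamts14, on chromosome 10 from 61197112 to 61273438, stood at 12.4, 12.1, 9.56 and 11.2 CPM in WT and at 6.07, 7.29 and 6.06 CPM in KO. The highest KO library was below the lowest WT library. Adamts14 fell to 0.573-fold (log2 fold change -0.80, SE 0.135, edgeR adjusted p = 6.55e-04, corrected -0.67). Adamts2, the most abundant of the 3, stood at 124, 128, 113 and 118 CPM in WT and at 109, 83.8 and 91.4 CPM in KO. It fell by 0.35 (SE 0.0993, edgeR adjusted p = 0.0150), with a corrected value of -0.09 (adjusted p = 0.339), and the call was also lost without KO library 2 (0.0801), without KO library 3 (0.0830) and with KO library 1 alone (-0.15, adjusted p = 0.451). Adamts3 was near 1 CPM, at 0.820 ± 0.0882 in WT and 0.550 ± 0.179 in KO (log2 fold change -0.58, SE 0.366, edgeR adjusted p = 0.248).

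The largest change of any member was that of Adamts19, an ADAMTS gene known from mutations in heart valve disease. It stood at 45.4, 42.7, 46.6 and 44.6 CPM in WT libraries 1 to 4 and at 17.5, 13.1 and 15.9 CPM in KO libraries 1 to 3. The 4 WT libraries varied by 3.69% (coefficient of variation), and every KO library held less than any WT library. The KO mean was 34.6% of the WT mean (log2 fold change -1.53, SE 0.109, edgeR adjusted p = 9.43e-08, corrected -1.32). Adamts16, on chromosome 13 from 70727802 to 70841811, stood at 19.2, 20.1, 16.6 and 20.2 CPM in WT and at 11.9, 9.72 and 10.1 CPM in KO, again without overlap. It fell to 0.554-fold (log2 fold change -0.85, SE 0.117, edgeR adjusted p = 1.06e-04, corrected -0.69). Adamts18, the closest relative of Adamts16, was not tested. It had 2, 8, 4 and 2 reads in the WT libraries and 0 in every KO library. With 3 counts as the floor of the whole KO group and the WT reads taken as exact, KO was 3.92-fold lower. That value leaves out the counting error of the WT reads and the spread between libraries.

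Adamts10 and Adamts6 encode related enzymes that act on fibrillin microfibrils and cell-surface proteins, and both fell. Adamts10 stood at 44.4, 44.4, 41.4 and 41.9 CPM in WT and at 36.0, 28.2 and 34.8 CPM in KO (log2 fold change -0.38, SE 0.101, edgeR adjusted p = 0.0108, corrected -0.37). Without KO library 2 its adjusted p was 0.0686, and with KO library 1 alone 0.206. Adamts6 stood at 5.16, 4.70, 5.39 and 5.82 CPM in WT and at 4.36, 2.92 and 3.01 CPM in KO. Its log2 fold change was -0.62 (SE 0.173, edgeR adjusted p = 0.0137), with a corrected value of -0.28 (adjusted p = 0.184). The call of Adamts6 was lost as well without KO library 2 (0.0554), without KO library 3 (0.0854) and with KO library 1 alone (-0.27, adjusted p = 0.536).

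ADAMTS7 and ADAMTS12 share a domain layout and both cut cartilage oligomeric matrix protein. Adamts12 stood at 9.22, 7.01, 8.30 and 7.65 CPM in WT and at 6.86, 3.39 and 3.76 CPM in KO. KO library 1 lay just under the lowest WT library and the other KO libraries lay far below. The decrease, -0.79 in log2 units (SE 0.211), had an edgeR adjusted p of 0.0139, with adjusted p = 0.0675 after the correction (-0.42), 0.0929 without KO library 3 and 0.563 with KO library 1 alone (-0.23). Adamts7 stood at 16.7, 17.07, 16.7 and 16.99 CPM in WT and at 17.03, 14.1 and 18.6 CPM in KO, with WT inside the KO range (log2 fold change -0.03, 95% interval -0.26 to 0.20, edgeR adjusted p = 0.878). The sign of that value turned with library totals alone (0.01) and after the correction (0.10). Adamts17 did not pass either (0.943 ± 0.254 CPM in WT, 0.766 ± 0.347 in KO, log2 fold change -0.31, edgeR adjusted p = 0.554).

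**Figure D3:**
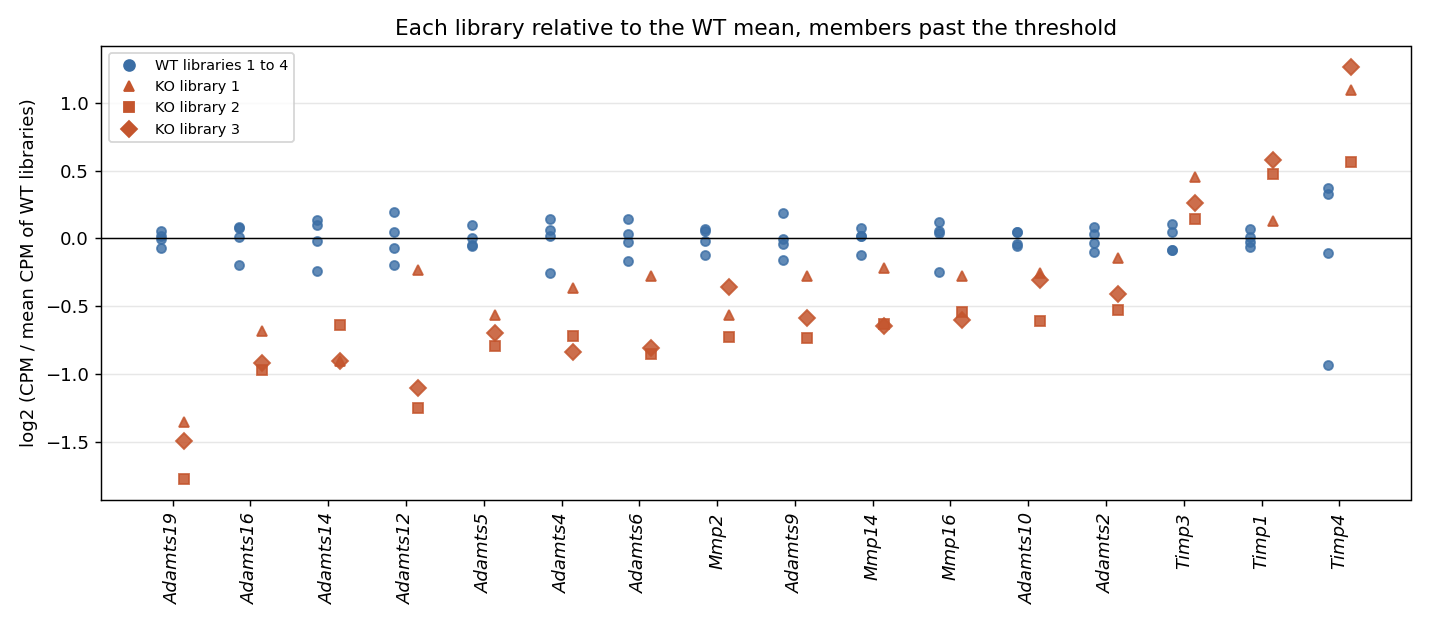
Log2 of the CPM in each library over the mean of the 4 WT libraries, for the 16 members past the threshold (WT circles; KO library 1 triangles, KO library 2 squares, KO library 3 diamonds). For none of these genes do the groups overlap, and for 12 of them KO library 1 is the KO library nearest to WT.

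Among the MMPs, the gelatinase and its activator were lower together. Mmp2, gelatinase A on chromosome 8 from 92827291 to 92853420, stood at 49.6, 50.2, 43.95 and 47.1 CPM in WT and at 32.3, 28.9 and 37.2 CPM in KO. No KO library reached the lowest WT library. Mmp2 fell to 0.688-fold, or -0.54 in log2 units (SE 0.103, edgeR adjusted p = 0.00160, corrected -0.62). Mmp14, on chromosome 14 from 54431612 to 54445364, stood at 214, 193, 214 and 222 CPM in WT and at 181, 137 and 135 CPM in KO. It fell by 0.48 (SE 0.107, edgeR adjusted p = 0.00401, corrected -0.54), with a smaller value in KO library 1 alone (-0.22, adjusted p = 0.194).

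Of the 6 membrane-type MMPs, Mmp16 fell besides Mmp14. Mmp16 stood at 8.49, 8.88, 6.89 and 8.38 CPM in WT and at 6.73, 5.61 and 5.38 CPM in KO, where KO library 1 and WT library 3 nearly met. Its log2 fold change was -0.47 (SE 0.141, edgeR adjusted p = 0.0205), with -0.29 after the correction (adjusted p = 0.152) and -0.28 in KO library 1 alone (0.457). This call was also lost without WT library 1, 2 or 4 and without KO library 2 or 3, and with the replicate number as a block (adjusted p = 0.0599; range 0.00481 to 0.457 over its alternatives). Mmp15 stood at 17.3, 16.3, 16.7 and 16.5 CPM in WT and at 17.2, 17.6 and 19.8 CPM in KO, with overlapping groups (0.12, 95% interval -0.09 to 0.33, edgeR adjusted p = 0.387). Mmp17 (1.31 ± 0.481 CPM in WT, 0.985 ± 0.201 in KO, log2 fold change -0.41, SE 0.318), Mmp24 (0.451 ± 0.132 and 0.503 ± 0.307, 0.14, SE 0.467) and Mmp25 (0.225 ± 0.112 and 0.195 ± 0.0368, -0.20, SE 0.575) did not pass (edgeR adjusted p of 0.351, 0.852 and 0.826). The signs for Mmp24 and Mmp25 turned in some settings.

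Mmp11 and Mmp23, activated by furin-type enzymes within the secretory pathway, did not pass the test. Mmp11 stood at 488, 510, 505 and 512 CPM in WT and at 540.1, 566 and 569 CPM in KO. The KO libraries were all higher than WT, by 0.15 on the log2 scale (95% interval -0.02 to 0.32, edgeR adjusted p = 0.185), and the sign turned after the correction (-0.02). Without KO library 1, Mmp11 was past the threshold (0.19, adjusted p = 0.0258). Mmp23 stood at 71.7, 67.4, 58.3 and 60.7 CPM in WT and at 55.9, 72.2 and 69.3 CPM in KO, with the groups interleaved. Its log2 fold change was 0.03 (95% interval -0.19 to 0.25, edgeR adjusted p = 0.865), but -0.24 after the correction (adjusted p = 0.0297), so its direction depends on that step. Mmp19, at 4.06 ± 0.956 CPM in WT and 3.74 ± 0.178 in KO (log2 fold change -0.12, SE 0.185), and Mmp28, at 0.296 ± 0.0626 and 0.264 ± 0.115 (-0.18, SE 0.508), did not pass (edgeR adjusted p of 0.668 and 0.830).

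Before the length and GC correction, the TIMP genes were the only one of the 3 families with members past the threshold toward higher levels. Timp1, on chromosome X from 20870166 to 20874735 (plus strand), stood at 48.1, 50.0, 46.9 and 45.8 CPM in WT and at 52.1, 66.3 and 71.1 CPM in KO. KO library 1 was just above the highest WT library, and the other KO libraries were far above it. Timp1 rose 1.33-fold (log2 fold change 0.41, SE 0.104, edgeR adjusted p = 0.00902). At 883 bases its transcript is the shortest of the members tested, and after the correction its value was 0.13 (adjusted p = 0.204). The call was lost too without KO library 3 (0.0821) and with KO library 1 alone (0.12, adjusted p = 0.577).

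Timp3, whose product binds to the matrix and inhibits ADAMTS as well as MMP enzymes, stood at 36.1, 36.1, 39.5 and 41.3 CPM in WT and at 52.2, 42.3 and 45.9 CPM in KO. Here KO library 1 was the farthest from WT. Timp3 rose 1.22-fold, or 0.29 in log2 units (SE 0.0986, edgeR adjusted p = 0.0348), and the corrected value was larger (0.48, adjusted p = 3.67e-04), as was that of KO library 1 alone (0.45, adjusted p = 0.0172). The call was lost when any one of WT libraries 1 to 4 or KO library 3 was left out, and with the replicate block (adjusted p = 0.0694; highest of its alternatives 0.0935). Timp4 stood at 0.645, 0.896, 0.364 and 0.870 CPM in WT and at 1.48, 1.02 and 1.67 CPM in KO, from 17 to 76 reads per library. It rose 1.99-fold (log2 fold change 1.00, SE 0.338, edgeR adjusted p = 0.0348, corrected 1.25), a call lost without WT library 1 (0.0660) or 3 (0.0946), without KO library 1 (0.0517) or 3 (0.171) and with KO library 1 alone (0.218).

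Timp2, the partner of MMP14 in MMP2 activation, did not pass. It stood at 271, 292, 266 and 286 CPM in WT and at 254, 248 and 255 CPM in KO. Its KO libraries all lay below WT, by 0.14 on the log2 scale (95% interval -0.32 to 0.03, edgeR adjusted p = 0.212). Summed over the 4 genes, Timp levels were 353 to 379 CPM in WT and 358 to 374 CPM in KO, whereas summed Adamts levels were 736 to 787 CPM in WT and 544 to 663 CPM in KO. Summed Mmp levels were 850.4 to 874 and 834 to 842 CPM. These sums are a description, weighted toward the most abundant members.

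Some members share exon bases with a gene on the other strand, and whether the counting used strand is not given in the sources used here. Of the 16 members past the threshold, 4 share such bases in GENCODE M21, among them Adamts9 with A730049H05Rik (1381) and Gm15737 (424), Timp3 with Syn3 (1733) and Timp4 with Syn2 (90). A730049H05Rik was higher in KO (23.9 to 29.1 CPM, log2 fold change 0.29, edgeR adjusted p = 0.0388), opposite to Adamts9. Syn3 and Syn2 were under 1 CPM in each group. Timp1 lies in an intron of Syn1 and shares none of its exon bases. The other 12 members past the threshold, 11 lower and 1 higher, share no exon base with another gene.

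Collagenases, stromelysins and most other MMPs of the chromosome 9 cluster were at or near 0 in both genotypes. That cluster spans 427.1 kb from 7272514 to 7699585 and holds 10 members in the order Mmp13, Mmp12, Mmp1b, Mmp3, Mmp1a, Mmp10, Mmp8, Mmp27, Mmp20 and Mmp7. Mmp13, Mmp1b, Mmp20 and Mmp7 had 0 reads in all 7 libraries. Without Mmp12 the other 9 genes together had 34 reads over all libraries, and no library had more than 11 for any of them. A library with 0 reads allows up to 0.0594 to 0.0772 CPM, taking 3 counts as the floor, which covers counting error only. Mmp10 had 8, 2, 2 and 11 reads in WT and 0, 0 and 2 in KO. Mmp3, Mmp1a, Mmp8 and Mmp27 had 0 reads in WT and 1, 1, 4 and 3 reads over the KO libraries. Mmp12, the macrophage elastase, was the member of the cluster with enough reads to test. It had 0.419 ± 0.176 CPM in WT and 0.810 ± 0.222 in KO (log2 fold change 0.94, SE 0.411, edgeR adjusted p = 0.0927, not past the threshold). Of 8 macrophage markers, 7 were tested and none passed, with summed levels of 24.0 to 26.5 CPM in WT and 23.3 to 28.5 CPM in KO.

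Outside the cluster, 7 members were also too low to test. Mmp9, gelatinase B, had at most 2 reads in any library, and 7 neutrophil markers summed to 0 to 0.129 CPM in WT and 0.102 to 0.264 in KO, with 3 of them, S100a9, Ly6g and Ngp, at 0 in all libraries. Mmp21 had 6 reads in WT library 1 and 0 elsewhere, Adamts13 had at most 1 read and Adamts20 at most 2 reads per library. Adamts8 had 6, 10, 12 and 6 reads in WT and 3, 0 and 6 in KO. Adamts15 had 0, 2, 0 and 2 reads in WT and 10, 6 and 10 in KO, so that its groups did not overlap, at levels of at most 10 reads.

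Most genes of this cluster share a feature of their upstream sequence. RefSeq promoter windows (GRCm38.p6, the assembly of mm10) were found for 32 of the 46 members, 35 windows in all, and the 250 bases upstream of each start site were searched on both strands. AP-1 is the FOS and JUN dimer, known for driving MMP promoters in stimulated cells, and TGANTCA, its binding letters, occurred in 8 member windows (22.9%) beside 6.75% of all 32851 windows. All 8 belong to the chromosome 9 cluster, where the windows of Mmp8 and Mmp27 and a second window each of Mmp12 and Mmp7 held no match. The genes of the cluster share an origin by duplication and are not independent. The 8 matches are shown because the same letters recur 35 to 95 bases before the start site in these genes, of which Mmp12 had enough reads to test and the others were at or near 0. Each line gives 27 bases, gene strand, with the AP-1 letters in capitals.
Mmp13: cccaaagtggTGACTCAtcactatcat
Mmp12: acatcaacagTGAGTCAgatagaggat
Mmp3: gaagcaattaTGAGTCAgttttcgggt
Mmp10: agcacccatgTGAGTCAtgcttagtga
Mmp7: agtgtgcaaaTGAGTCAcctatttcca
Mmp1a: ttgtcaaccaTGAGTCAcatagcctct
Mmp1b: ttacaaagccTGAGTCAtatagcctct
Mmp20: atttgagacaTGAATCAtcacttacag
The Mmp13 stretch lies at chr9:7272469-7272495 on the plus strand, and its letters begin 35 bases before the start site. Those of Mmp1b lie at chr9:7388103-7388129 on the minus strand, beginning 93 bases before it.

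Of the 16 members past the threshold, 8 had a window, and none of these windows held the AP-1 letters. With these letters in 6.75% of all windows, 0 of 8 does not set these members apart. The other members past the threshold, among them Mmp2, Adamts5, Adamts16 and Adamts19, had no window to search. The binding letters of TEAD factors, the DNA-binding partners of YAP, are GGAATG on either strand. They occurred in 12.6% of all windows and in 2 of the 35 member windows (5.71%), those of Timp1 and Adamts13. The letters GGGCGG of the GC box, bound by SP1, occurred in 32.7% of all windows and in 16 of the 35 member windows (45.7%). Of the 8 members past the threshold with a window, 6 held them. The cyclic AMP element TGACGTCA occurred in 1.55% of all windows and in none of the members. None of these 4 patterns contains another. The 250 upstream bases of Timp1 and of Mmp14 are shown as 2 members with unlike changes, with TEAD and GC box letters in capitals. Timp1 was past the threshold toward higher levels only before the length and GC correction. Mmp14 was past it toward lower levels before and after that step. They are chrX:20869916-20870165 and chr14:54431348-54431597, both on the plus strand and free of annotated exons.
Timp1: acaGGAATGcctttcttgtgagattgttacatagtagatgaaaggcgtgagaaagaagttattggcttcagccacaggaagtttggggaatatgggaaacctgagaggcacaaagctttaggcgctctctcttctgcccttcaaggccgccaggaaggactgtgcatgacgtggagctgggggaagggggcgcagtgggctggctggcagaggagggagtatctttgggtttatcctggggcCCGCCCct
Mmp14: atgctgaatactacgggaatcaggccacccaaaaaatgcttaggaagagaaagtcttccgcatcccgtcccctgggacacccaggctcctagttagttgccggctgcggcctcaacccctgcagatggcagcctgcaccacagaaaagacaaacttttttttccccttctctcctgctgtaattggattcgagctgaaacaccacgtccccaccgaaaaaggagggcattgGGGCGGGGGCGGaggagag
A match is a description of letters and not evidence of binding.

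Over the 18 alternative settings, 5 of the 16 calls were kept in every one: Mmp2, Adamts5, Adamts14, Adamts16 and Adamts19, all lower in KO. Of these settings, leaving out WT library 4 and taking the 6 libraries numbered 1 to 3 without a replicate block are the same fit. Their log2 fold changes ranged over these settings from -0.64 to -0.45 for Mmp2, -0.72 to -0.22 for Adamts5, -0.90 to -0.67 for Adamts14, -0.92 to -0.68 for Adamts16 and -1.61 to -1.32 for Adamts19. The other 11 calls were lost in at least 1 setting: 8 of the 16 without KO library 3, 4 without KO library 2, 6 after the length and GC correction and 10 with KO library 1 alone against WT. In that last setting 5 members were lower and 1, Timp3, was higher, where 4.60% of all genes tested passed (2.97% lower and 1.63% higher). KO library 1 was the KO library nearest to WT for 12 of the 16 members, as it was for 80.7% of all 4588 genes past the threshold.

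**Figure D4:**
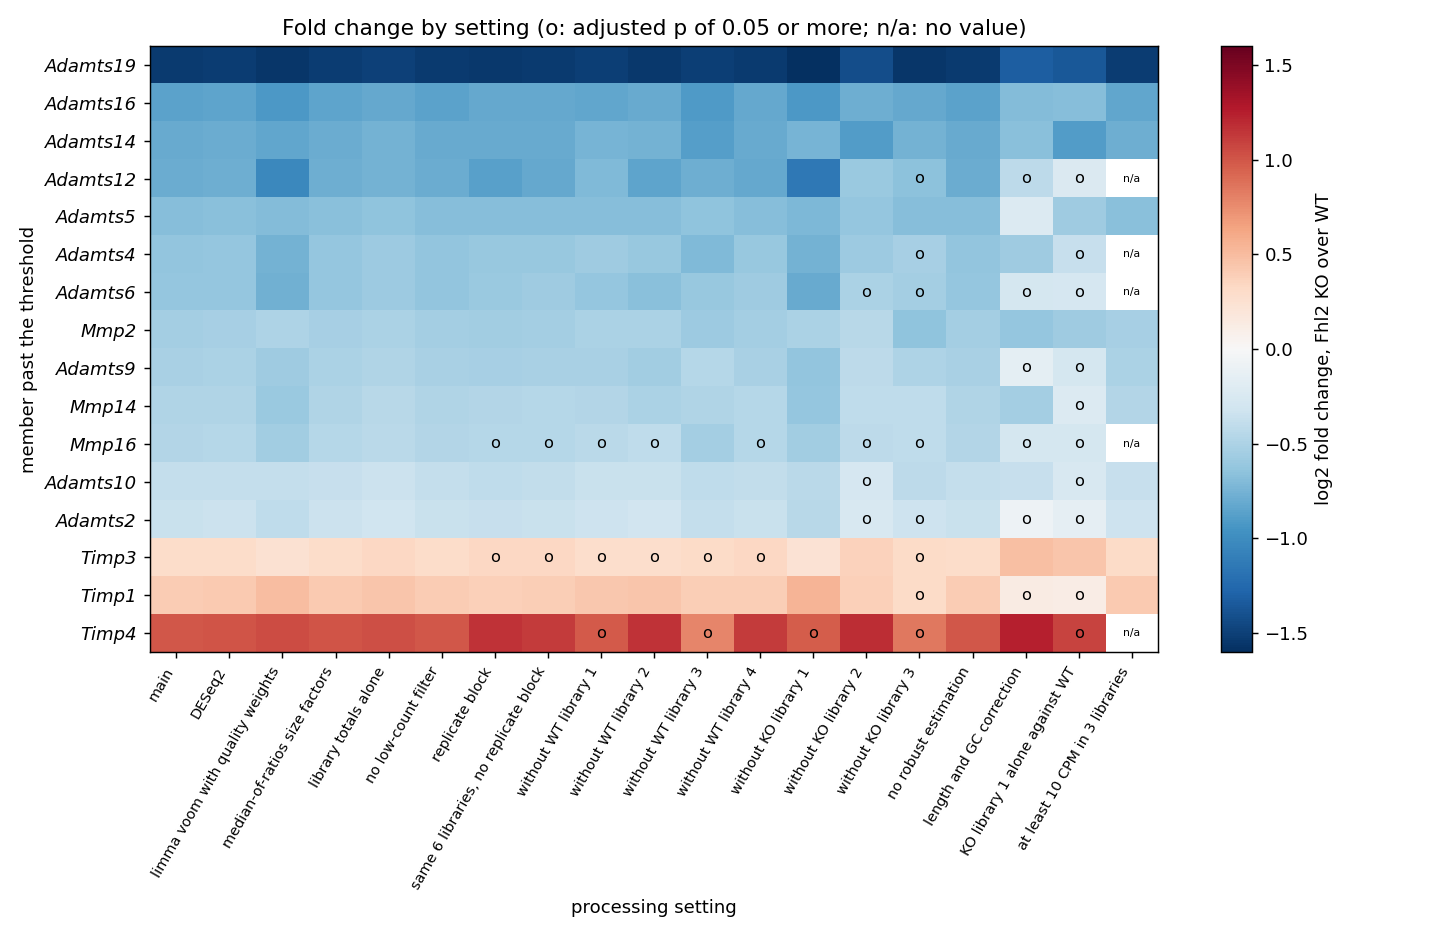
Log2 fold change, Fhl2 KO over WT, of the 16 members past the threshold (rows) under the main and 18 alternative settings (columns), with blue for lower and red for higher in KO. A circle marks an adjusted p of 0.05 or more and n/a a gene that the setting did not test. The rows of Adamts19, Adamts16, Adamts14, Adamts5 and Mmp2 carry no circle, and every colored cell keeps the direction of its row.

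Genes that act with these enzymes moved in both directions. Of 17 activators, docking proteins, clearance receptors and plasminogen system genes, 15 were tested, 3 rose and 5 fell (median log2 fold change -0.36, corrected -0.11), where 13.5% of all genes tested were higher and 15.6% lower. Plau, the urokinase that makes plasmin and so can activate pro-MMPs, rose by 1.23 in log2 units (SE 0.101, edgeR adjusted p = 4.85e-07, corrected 1.16), with WT at 331 ± 30.8 CPM and KO at 776 ± 86.0. The integrin subunits Itgav and Itgb3, which together can dock MMP2 at the cell surface, fell by 0.96 (SE 0.0846) and 0.91 (SE 0.108). Furin, which cleaves the precursors of MMP14, MMP11 and several ADAMTS enzymes, did not pass (118 ± 10.3 CPM in WT, 112 ± 5.34 in KO, edgeR adjusted p = 0.535), and the membrane-bound MMP inhibitor Reck did not either (-0.43, adjusted p = 0.119).

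Of 10 tested membrane-anchored ADAM proteases, 3 fell and 1 rose (median -0.31, corrected -0.15). With 29.0% of all genes past the threshold, these 4 of 10 are not set apart by their count, nor are the single calls among the ADAMTS-like and astacin genes below. Adam19 fell by 1.08 (SE 0.175), Adam9 by 0.46 (SE 0.101) and Adam10 by 0.37 (SE 0.0904), and Adam23, which lacks protease activity, rose by 0.40 (SE 0.112). Adam17, the main sheddase of EGF receptor ligands, had 51.8 ± 2.62 CPM in WT and 43.4 ± 6.19 in KO (-0.25, edgeR adjusted p = 0.0699). Of 6 tested ADAMTS-like genes, which have the ADAMTS ancillary domains but no protease domain, 1 fell: Thsd4, from 23.1 ± 1.38 to 10.2 ± 3.27 CPM (-1.18, SE 0.167). Of 4 tested genes of astacin proteases and their enhancers, Tll1 fell (-1.69, SE 0.487), while the procollagen C-proteinase Bmp1 did not pass (0.11, edgeR adjusted p = 0.388, corrected 0.25 with adjusted p = 0.0127).

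Substrates of the enzymes were mostly lower: of 18 tested, 11 fell and 2 rose (median -0.57, corrected -0.33), beside 15.6% lower and 13.5% higher of all genes tested. After the correction 9 were lower and 1 was higher, beside 11.7% and 11.1%. The fibrillar collagen genes Col1a2 (-1.72, SE 0.146), Col1a1 (-1.57, SE 0.112) and Col3a1 (-1.50, SE 0.112), whose propeptides ADAMTS2 and ADAMTS14 remove, and Nid1 (-1.25, SE 0.111) had the smallest p-values. The proteoglycan gene Vcan fell from 26.7 ± 3.35 to 21.4 ± 2.56 CPM (-0.32, SE 0.116, edgeR adjusted p = 0.0462), but its corrected value was 0.17 (adjusted p = 0.161). Acan, Ncan and Comp were too low to test. The members that rose were the brain proteoglycan Bcan (0.65, corrected 0.57) and the MMP substrate Spp1 (0.62, corrected 0.46 with adjusted p = 0.0962).

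Cell type markers moved as well, where 15.6% of all genes tested were lower and 13.5% higher. Of 10 tested granulosa markers 5 fell (Foxl2, Inhbb, Inhba, Nr5a2 and Amh) and 2 rose (Inha and Fshr). The granulosa markers summed to 6291 to 6961 CPM in WT and 5537 to 6645 CPM in KO. After the correction 5 were lower and 1 was higher, beside 11.7% and 11.1% of all genes tested. Nr5a2 (-0.10, edgeR adjusted p = 0.329) and Fshr (0.42, adjusted p = 0.0990) then no longer passed, and Hsd17b1 (-0.30, adjusted p = 0.00626) newly passed. The part of these granulosa changes in the members' values was not tested. In bulk samples, fewer cells of a type and less RNA per cell cannot be told apart. Stroma and fibroblast markers included 6 of 9 that fell and 0 that rose, with summed levels of 371 to 429 CPM in WT and 121 to 167 CPM in KO. Most of that sum came from Col3a1 (221 ± 8.38 CPM in WT), Col1a2 (91.8 ± 11.4) and Col1a1 (72.7 ± 7.87), which also stand among the substrates above. Pdgfra (6.36 to 3.71 CPM) and Thy1 (6.15 to 3.78 CPM) fell too, while Dcn (0.517 to 0.690 CPM) and Lum (0.310 to 0.0577 CPM) were low and did not pass. Of 8 tested smooth muscle and pericyte markers 5 fell and none rose (summed 1028 to 1143 CPM in WT, 578 to 673 in KO), mostly by way of Acta2, and Rgs5 was at 0. The part of these cells in the lower levels of Mmp2, Mmp14, Adamts2, Adamts5 and Adamts14 was not tested. Of 8 surface epithelium markers 5 rose (summed 110.0 to 127 CPM in WT, 140.0 to 183 in KO), and 2 of 3 tested lung genes rose (summed 0.128 to 0.418 CPM in WT, 9.76, 22.8 and 1.08 CPM in KO libraries 1 to 3). The part of either in the TIMP values was not tested. Theca markers had 2 tested genes, 1 higher and 1 lower, and oocyte markers had 1 of 7 that fell and 0 that rose. The lower theca gene, Ptch1 (-0.54), did not pass after the correction (-0.08, edgeR adjusted p = 0.520). After that step 6 stroma and 6 smooth muscle and pericyte markers were lower. Higher were 4 surface epithelium markers and 2 lung genes. The oocyte count is not set apart from the share of all genes. Endothelial markers summed to at most 2.57 CPM in WT and 2.49 CPM in KO, with none past the threshold.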

How the data were processed

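Total RNA was sequenced from granulosa cells with a stranded mRNA kit, per the labels' protocols. The deposited values are counts, whole-number reads per gene symbol and library that the authors did not normalize. Per the submitters' processing notes, HISAT2 2.2.1, featureCounts 1.6.4 and build mm10 were among the tools and builds named. Strand setting and annotation release: not given in the sources used here. The labels do not say that libraries came from separate animals, and p-values then reflect only sample-to-sample spread, which may be technical.

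The quasi-likelihood test of edgeR 4.0.16 (R 4.3.3, TMM factors, robust fit, filterByExpr at its minimum count of 10) had genotype as its only term, with Benjamini-Hochberg adjustment over the 15798 genes tested. CPM uses TMM-scaled library sizes and is given as mean ± SD. Coordinates and the longest transcript per gene came from GENCODE M21 (mm10), matched for all 46 members by symbol. The correction entered each library's spline trend (4 degrees of freedom) of log2 CPM on length and GC, available for 98.6% of tested genes, as an offset. Alternatives included DESeq2 1.42.0 and limma 3.58.1. The steps were tested on simulated data, where false calls made up a larger share of all calls than the threshold of 0.05 allows, so adjusted p-values near it are uncertain. No 2 libraries of a group agreed within counting noise. All tested members were named, and of each other list up to 4 called members with the smallest p, besides others singled out after their values were seen. The members and lists were chosen with earlier results of these data known. Some genes of the lists and overlaps are not reported here.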

Additional observations from a re-analysis of the deposited data

How the results depend on the processing

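All 16 members past the threshold kept their direction in each of the 18 alternative settings that tested them. Under DESeq2, voom with weights, no filter on low counts, no robust step, unscaled totals, or factors from the median of ratios, 16 members passed each time. The count moved from 16 to between 8 and 16 when single libraries were left out (8 to 13 lower, 0 to 3 higher), and to 6 (5 lower, 1 higher) with KO library 1 alone against WT. Without WT library 1, and likewise without WT library 3, a single member passed toward higher levels, and without KO library 3 the counts were 0 higher and 8 lower. In all genes, 1657 (without KO library 3) to 6740 (without KO library 1) passed with single libraries left out (662 to 3331 higher, 995 to 3409 lower), 781 with KO library 1 alone (277 higher, 504 lower), and 2960 in the 6 same-numbered libraries without a block (1271 higher). The lists of partners, related proteases and substrates had 27 members past the threshold together and 13 with KO library 1 alone. With the replicate number as a block over the same 6 libraries, 14 members passed (12 lower, 2 higher), as without it, and 3301 genes in all (1228 higher). Deviations of same-numbered libraries correlated at 0.0449, 0.00191 and -0.0496. They gave no sign that the numbers pair the samples, but so few libraries cannot exclude it.

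Members not past the threshold whose sign turned were Mmp24 (-0.45 with voom quality weights), Mmp25 (0.15 with voom), Adamts7 (0.00889 with voom, 0.0104 with library totals, 0.10 corrected, 0.0110 with KO library 1 alone), Mmp23 (-0.00120 with the block, -0.24 corrected, -0.21 with KO library 1 alone), Mmp11 (-0.0246 corrected), Adamts17 (0.28) and Mmp28 (0.37), the last 2 with KO library 1 alone. With single libraries left out, Mmp24 ran from -0.41 to 0.48, Mmp23 from -0.0330 to 0.15, Adamts7 from -0.12 to 0.0869, Mmp19 from -0.23 to 0.0566 and Mmp28 from -0.50 to 0.0997. The causes were not tested. DESeq2 gave no adjusted p for Mmp25 and Mmp28, which have few reads. Of the tested members near or under 1 CPM, Timp4 passed, and all of them, Timp4 included, have wide standard errors.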
